A study of Mus musculus with 22 samples.

Results

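Rbm3 and Cirbp, the mammalian genes best known for rising when tissue cools, were followed in the hypothalamus of mice carrying Lewis lung carcinoma, a transplantable mouse tumour. They were picked by name, 2 of the 18820 genes that the deposited table covers through a probe set of their own, and a gene with several such probe sets is represented by the one with the highest mean. The pair was put together with its values in these data already known, so its levels and differences between groups are given as a description, without a test. All 22 mice were male C57BL/6, 6 weeks old at inoculation, housed alone at 21 degrees C with food at will, and killed under ketamine and xylazine anaesthesia, which the controls shared. The 4 controls carried no tumour and were taken on day 14. The tumour-bearing mice, with tumour cells in the muscle of a hind leg, comprised 5 mice of day 10, 7 mice of day 14 and 6 mice of day 17. Only day 14 therefore had controls of its own day, and all 3 tumour-bearing groups were set against the same 4 controls. No value is used here for body temperature, time of day or any injection the controls received.

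Rbm3 and Cirbp encode small proteins of the same build, an RNA recognition motif followed by a tail rich in glycine. Both transcripts accumulate under mild hypothermia and fall under heat, the opposite of the heat shock chaperones, and both follow the daily rhythm of body temperature. RBM3 binds RNA, aids translation in the cold and is known for the upkeep of synapses in cooled brain. CIRBP binds and stabilises transcripts, among them that of the clock gene Clock, and acts as an inflammatory signal when cells release it. The hypothalamus holds the preoptic neurons that set body temperature.

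The promoter of Cirbp is shown because a mild cold response element was described upstream of this gene. RefSeq windows (GRCm38.p6) matched 1 of the 2 genes, Cirbp, with 2 start sites, and the 250 bases before the first of these are printed. They lie on the plus strand at chr10:80167589-80167838. Capitals mark the cold response element and the CCAAT boxes.

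Cirbp: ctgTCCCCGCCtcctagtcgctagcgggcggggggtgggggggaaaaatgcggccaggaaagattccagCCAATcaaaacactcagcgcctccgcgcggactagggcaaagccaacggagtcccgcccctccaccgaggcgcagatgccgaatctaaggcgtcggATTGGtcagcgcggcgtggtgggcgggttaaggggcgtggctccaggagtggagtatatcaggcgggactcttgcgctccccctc

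The element, TCCCCGCC, was found once, from 247 to 240 bases before the start. Searched on both strands, it occurred in 4.64% of 32851 mouse promoter windows of 250 bases. The window also held 2 CCAAT boxes (CCAAT, in 33.8% of windows) and 3 GC boxes (GGGCGG, in 32.7% of windows), none of which overlapped the element. The core of a heat shock element, GAANNTTC, was found in 6.69% of windows and not in this one. The window of the second start site held 4 GC boxes and neither the cold response element nor a CCAAT box. These are matches of letters, not measured binding.

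Each value is a log2 expression value of a microarray, made by RMA, a method that removes background and puts all arrays on the same scale, so a difference of 1 is a doubling. Background was set at 3.87, a level that 95% of probe sets for olfactory and vomeronasal receptors did not exceed. The median of an array was between 5.27 and 5.34. Any pair of arrays correlated at 0.980 to 0.995. Of 10 markers of the hypothalamus, 9 lay above background and Crh lay below it (mean 3.63). The mean of 10 thalamus markers, genes of the neighbouring tissue, ran from 5.96 to 7.32 in controls and from 5.89 to 6.87 in the tumour-bearing mice, and all 10 had a lower mean in every tumour-bearing group. The 2 measured red cell markers, Alas2 and Slc4a1, rose on days 14 and 17 (limma adjusted p below 0.05), as did 0.197% and 0.436% of all genes. Their median difference from control was 1.03, 1.86 and 2.26 on days 10, 14 and 17, and on day 10 limma called 0 of the 2.

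Rbm3 was lowest in controls and higher in each tumour-bearing group, in the order day 10, day 14, day 17. In the 4 controls its values were 9.30, 9.37, 9.41 and 9.80. On day 10 they were 9.91, 9.81, 9.84, 10.41 and 9.72 in the 5 mice. On day 14 the lowest of 7 values was 9.78, the median 10.35 and the highest 10.53, and on day 17 the lowest of 6 was 9.97, the median 10.71 and the highest 10.83. Control replicate 4 stood above the other controls, day 10 replicate 4 stood above its group, and day 17 replicate 6 lay below the other mice of day 17. All 6 mice of day 17 lay above every control, as did 6 of 7 mice of day 14 and 4 of 5 of day 10. Of all genes, 1.66%, 0.776% and 2.21% had every mouse of day 17, 14 or 10 above every control. For these genes, which were chosen with this contrast known, nothing is read from that.

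The mean of Rbm3 was 9.47 ± 0.22 (SD, n = 4) in controls, 9.94 ± 0.27 (n = 5) on day 10, 10.24 ± 0.28 (n = 7) on day 14 and 10.57 ± 0.31 (n = 6) on day 17. The difference from control was 0.47 ± 0.17 (SE of a limma fit over all genes, log2), 0.77 ± 0.16 and 1.10 ± 0.17 on days 10, 14 and 17, or 1.38, 1.70 and 2.15 times the control level. Between tumour-bearing groups, day 14 lay 0.30 ± 0.15 above day 10 and day 17 lay 0.33 ± 0.14 above day 14. Each of these steps was close to the SD within a group, about 0.28 over all groups, and neighbouring groups overlapped. Day 17 lay 0.63 ± 0.16 above day 10.

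Cirbp followed the same order with smaller differences. Its values were 7.88, 7.88, 7.84 and 8.21 in the 4 controls and 8.40, 8.16, 8.02, 8.37 and 8.05 on day 10. On day 14 the lowest of 7 values was 8.11, the median 8.47 and the highest 8.54, and on day 17 the lowest of 6 was 8.11, the median 8.65 and the highest 8.75. As for Rbm3, control replicate 4 lay above the other controls and day 17 replicate 6 below its group, while day 10 replicate 4 (8.37) lay just under replicate 1 of its group (8.40). Only 2 of 5 mice of day 10 lay above every control, against 6 of 7 on day 14 and 5 of 6 on day 17. With all 4 controls, 13 of 18 tumour-bearing mice lay above every control for Cirbp and 16 of 18 for Rbm3. Setting aside control replicate 4, chosen after its value was seen, put all 18 above the other 3 controls for both genes. The share of all genes that do so was not computed, and nothing is read from that.

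The mean of Cirbp was 7.95 ± 0.17 (SD, n = 4) in controls, 8.20 ± 0.18 (n = 5) on day 10, 8.38 ± 0.15 (n = 7) on day 14 and 8.58 ± 0.24 (n = 6) on day 17. The difference from control was 0.25 ± 0.12 (SE, log2), 0.43 ± 0.11 and 0.63 ± 0.11 on days 10, 14 and 17, or 1.19, 1.35 and 1.55 times the control level. Steps between neighbouring days were 0.18 ± 0.10 and 0.20 ± 0.10, again near the SD within a group (0.19), and day 17 lay 0.38 ± 0.11 above day 10.

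**Figure D1:**
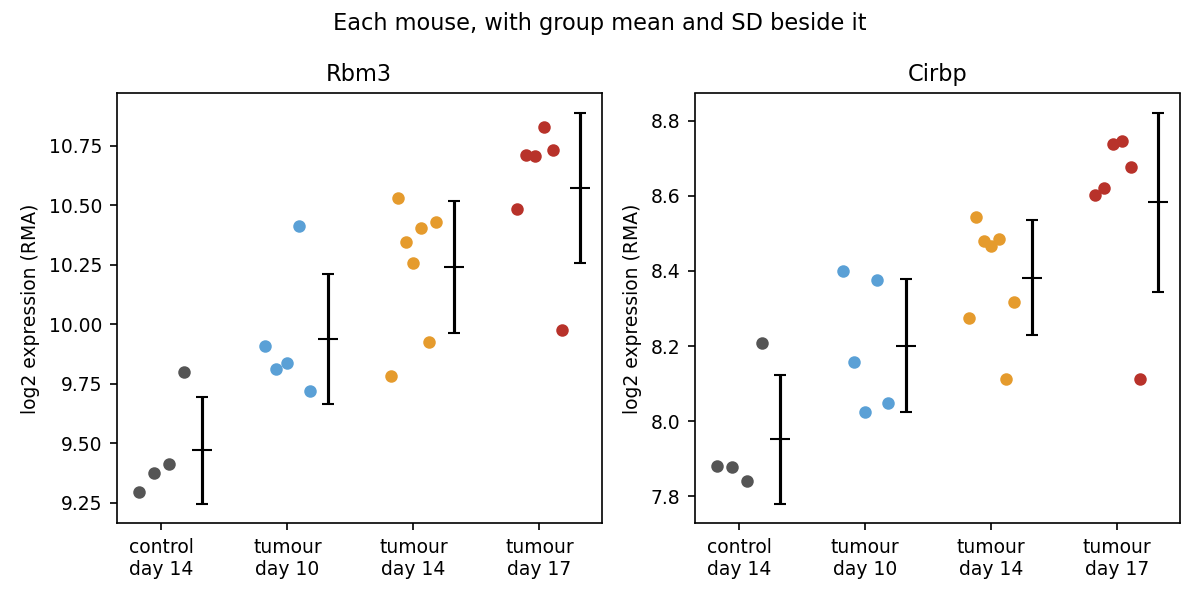
Log2 expression of Rbm3 (left) and Cirbp (right) in each of 22 mice by group, 1 point per mouse, with the group mean and SD beside the points. Group means rise from control through days 10, 14 and 17, from 9.47 to 10.57 for Rbm3 and from 7.95 to 8.58 for Cirbp, and 1 mouse of day 17 (replicate 6) lies at 9.97 and 8.11, among the mice of earlier days.

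These differences were also computed without the mice that stood apart. Without day 17 replicate 6 the day 17 difference was 1.22 for Rbm3 and 0.72 for Cirbp, and without control replicate 4 it was 1.21 and 0.72. Samples may have been processed in runs of consecutive accessions (the first 9 and the last 13), which the labels do not state. In the earlier run, with 1 control, Rbm3 differed on days 10, 14 and 17 by 0.57, 0.92 and 1.34 and Cirbp by 0.40, 0.55 and 0.77. In the later run, with 3 controls, Rbm3 differed by 0.46, 0.73 and 0.98 and Cirbp by 0.17, 0.37 and 0.54. Adjusted for the thalamus marker mean, the day 17 differences were 1.08 for Rbm3 and 0.61 for Cirbp. That mean was nearly unrelated to either gene within groups (r = -0.07 and -0.08), so the adjustment could change little. The part of neighbouring tissue in the differences was not tested. In whole tissue, a change in the share of cells of a type and a change in RNA per cell cannot be told apart.

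The platform annotation gave 3 probe sets to Rbm3 alone, and these followed each other closely. Across the 22 mice the other 2 correlated with the chosen one at r = 0.996 and 0.996. Their day 17 differences were 1.10 and 1.06, against 1.10 for the chosen probe set. Their annotated transcripts overlap, so they are no independent replicates, and whether some of their probes also match near-identical copies of the gene was not tested. Another probe set, annotated to Rbm3 and its antisense gene Rbm3os, had a mean of 3.93, close to background, and was not used. Cirbp had 1 probe set.

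Rbm3 and Cirbp varied together among mice of the same group. To keep the difference between groups out of this relation, each mouse was expressed as its deviation from its group mean. In 19 of 22 mice both genes deviated in the same direction. The deviations correlated at Pearson r = 0.845 and Spearman rho = 0.827 (permutation within groups, two-sided, p = 0.00016 and 5e-05, adjusted 0.00048 and 0.00015 over 3 relations). The pair was put together with its values in these data already known. These p-values, and those inside single groups below, are therefore no independent evidence that the genes vary together. Day 17 replicate 6 was the lowest mouse for both genes, at -0.60 for Rbm3 and -0.47 for Cirbp, and without it r was 0.767. A deviation of 1 in Rbm3 went with 0.57 in Cirbp. Without the 2 mice with the largest Rbm3 deviations, day 17 replicate 6 and day 10 replicate 4, r was 0.746 (permutation p = 0.00182), a setting added after seeing the data.

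Inside single groups of 6 or more mice the relation rested on a few mice. On day 14 it was r = 0.766 and rho = 0.750 over 7 mice (exact permutation p = 0.0446 and 0.0663, adjusted 0.0446 and 0.0663, smallest possible 0.000198). Without replicates 1 and 6, the 2 farthest from the median of Rbm3, r fell to 0.146, so the relation no longer held there. On day 17 it was r = 0.971 and rho = 0.829 over 6 mice (exact permutation p = 0.00833 and 0.0583, adjusted 0.0125 and 0.0663, smallest possible 0.00139). Without replicates 6 and 1, r was 0.539. With 4 and 5 mice, the controls and day 10 gave 0.952 and 0.682 as values only.

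The genes most like Rbm3 across all 22 mice, group differences included, began with Cirbp itself. Among 13127 other named genes above background, Cirbp had the highest correlation with Rbm3 (r = 0.944), and the next were Znfx1 (0.933), an interferon-linked RNA helicase-like gene, Ovgp1 (0.931), an oviduct glycoprotein gene, Tfrc (0.902), the transferrin receptor gene, and Cdkl3 (0.90), a kinase gene. For Cirbp the order was Rbm3, Znfx1 (0.914), Ovgp1 (0.903), Cdkl3 (0.892) and Med12 (0.889), a subunit of Mediator. These correlations share the difference between groups and are given without a test.

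With group means removed, the likeness among mice of the same group picked partly other genes. The highest within-group correlation with Rbm3 was that of Ovgp1 (r = 0.877), then Cirbp, Znfx1 (0.817), the thioredoxin reductase gene Txnrd3 (0.801) and the DNA repair gene Rad18 (0.793). Atp11b, Rab34, Ankrd16, Tmem87b and Erlec1 followed, from 0.776 down to 0.748. For Cirbp it was Txnrd3 (0.875), then Rbm3, Znfx1 (0.810), Acr (0.809), Aox1 (0.802), Ankrd16 (0.795), Ovgp1 (0.792), Med12 (0.784), Pole3 (0.776) and Slc35f5 (0.773). Over all 13127 genes the median r was -0.04 with Rbm3 and -0.02 with Cirbp, and only 4 genes exceeded 0.8 with Rbm3 and 5 with Cirbp. Of the 10 highest, 4 were on both lists (Ankrd16, Ovgp1, Txnrd3 and Znfx1).

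Genes that ran opposite to Cirbp within groups included chaperones of the heat shock response. The lowest correlation with Cirbp was that of Xpo1 (r = -0.88), the exporter of proteins from the nucleus, and Hsph1, Hspd1 and Chordc1, which encode a heat shock protein of the Hsp110 family, the mitochondrial chaperonin and an Hsp90 co-chaperone, stood at -0.85, -0.83 and -0.78. The others among the 10 lowest were the ubiquitin pathway genes Ube2ql1 (-0.83) and Uba6 (-0.82), the mitochondrial carrier gene Slc25a23 (-0.83), Dnal4 (-0.79), the poly(A) polymerase gene Papola (-0.79) and Dusp19 (-0.78). The 10 lowest with Rbm3 were other genes, apart from Slc25a23 (-0.76). They were Dnase1l2 (-0.79), Reep6 (-0.77), the sodium pump subunit gene Atp1b2 (-0.77), the calreticulin gene Calr (-0.76), the neurocan gene Ncan (-0.76), Garem2 (-0.76), the complex I gene Ndufa2 (-0.76), the chromatin remodeller gene Smarca4 (-0.75) and the fatty acid desaturase gene Fads1 (-0.74).

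**Figure D2:**
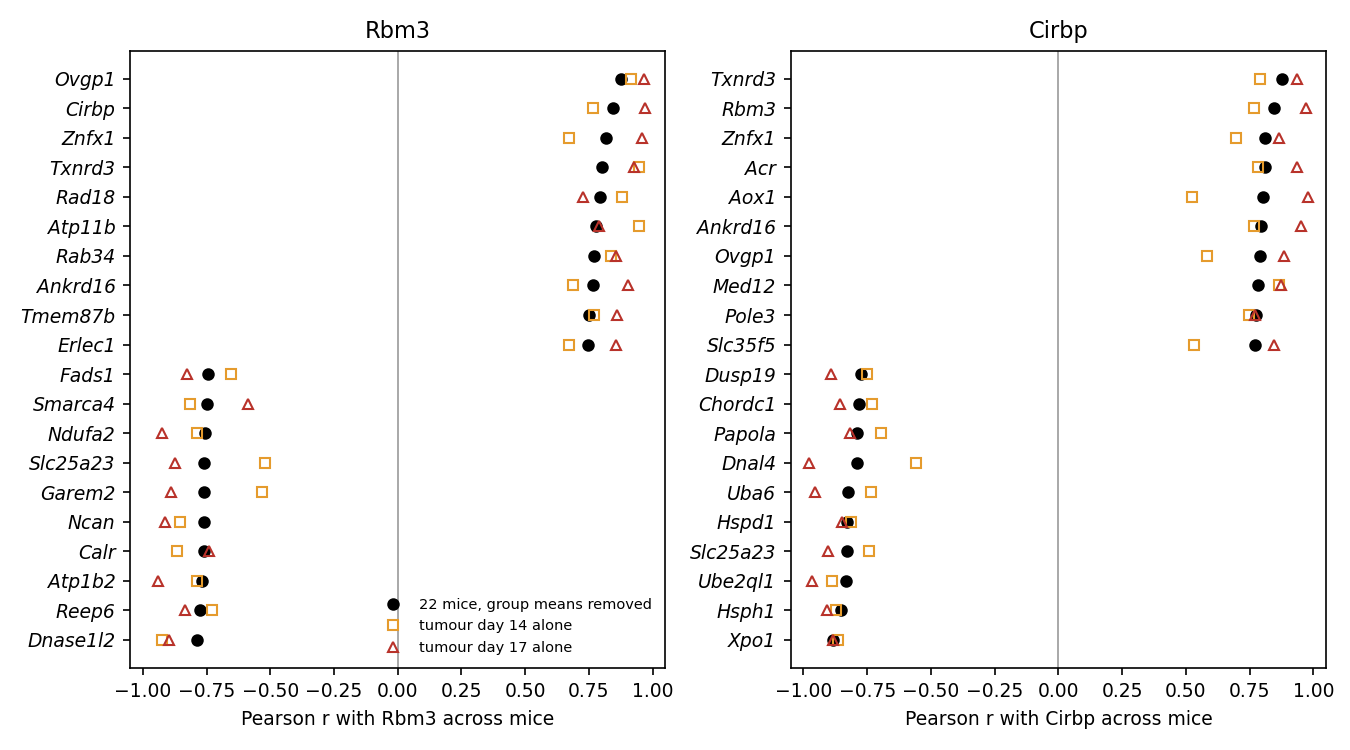
Pearson r across mice with Rbm3 (left) and Cirbp (right) for the 10 genes with the highest and the 10 with the lowest value over 22 mice after group means were removed (black points), with the value inside day 14 (squares) and day 17 (triangles) alone. Every gene shown kept its sign in both groups, and the genes were chosen on mice that include these.

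Several of these genes also differed between groups. On day 14, where limma called 0.197% of all genes higher, Znfx1 rose by 0.55 ± 0.09 (SE, log2, limma adjusted p = 0.00791). On day 17, limma called 82 genes higher (0.436% of all genes) and 129 lower (0.685%) at a Benjamini-Hochberg adjusted p below 0.05. Of the 9 highest correlates of Rbm3 other than Cirbp, 3 rose on day 17. They were Znfx1 by 0.69 ± 0.10 (SE, log2, limma adjusted p = 0.00115), Ovgp1 by 0.61 ± 0.12 (adjusted p = 0.0116) and Rad18 by 0.40 ± 0.09 (adjusted p = 0.0328). Of its 10 lowest, 6 fell, with Ncan at -0.53 ± 0.09 and Ndufa2 at -0.40 ± 0.08 the farthest, ahead of Fads1, Calr, Atp1b2 and Smarca4. Of the 10 lowest correlates of Cirbp, 4 fell on day 17 (Hsph1, Chordc1, Xpo1 and Dusp19), and Xpo1 was at -0.34 ± 0.08 (adjusted p = 0.0331).

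The heat-inducible chaperones moved against Rbm3 and Cirbp between groups. Of 15 measured, 7 fell on day 17 and 0 rose, where limma called 0.685% of all genes lower and 0.436% higher. This list, like the others, was chosen with earlier results of these data known. Dnajb1, an Hsp40 co-chaperone of Hsp70, fell by 0.55 ± 0.10 (SE, log2, limma adjusted p = 0.00534), Hspe1, the partner of the mitochondrial chaperonin, by 0.31 ± 0.06 (adjusted p = 0.0096), Hsph1 by 0.54 ± 0.11 (adjusted p = 0.022) and Stip1, which links Hsp70 to Hsp90, by 0.36 ± 0.08 (adjusted p = 0.0237). Hspa4l, Chordc1 and Fkbp4 also fell. Dnajb1 lay between 7.60 and 7.76 in controls and between 6.93 and 7.47 on day 17, so every mouse of day 17 lay below every control, as it did for 3.30% of all genes. On day 17, 12 of 15 had an unadjusted p below 0.05, against 16.6% of all genes. The median difference of the 15 genes was -0.31 on day 17, against -0.01 over all genes, and all 15 were negative.

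On days 10 and 14 the chaperones had the same sign but did not pass. On day 10, limma called 0 of 15 lower, with 14 negative, where 0.00531% of all genes were called lower. An unadjusted p below 0.05 was found for 4 of them and for 10.7% of all genes. On day 14 it called 0, with 14 negative, where 0.0213% of all genes were called lower. An unadjusted p below 0.05 was found for 10 of them and for 10.5% of all genes. The median difference was -0.10 and -0.20. On day 14, Dnajb1 differed by -0.40 ± 0.09 (limma adjusted p = 0.0769) and Hsph1 by -0.43 ± 0.11 (adjusted p = 0.104). Single arrays moved the day 17 count of 7. Leaving out control replicate 1, 2 or 3 gave a count of 1, 2 or 2. Leaving out day 17 replicate 2, 3, 4 or 5 gave 3, 4, 2 or 4. A fit of these groups alone gave 2. The day 14 count was 3 when its replicate 6 was left out and 1 when day 17 replicate 6 was.

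**Figure D3:**
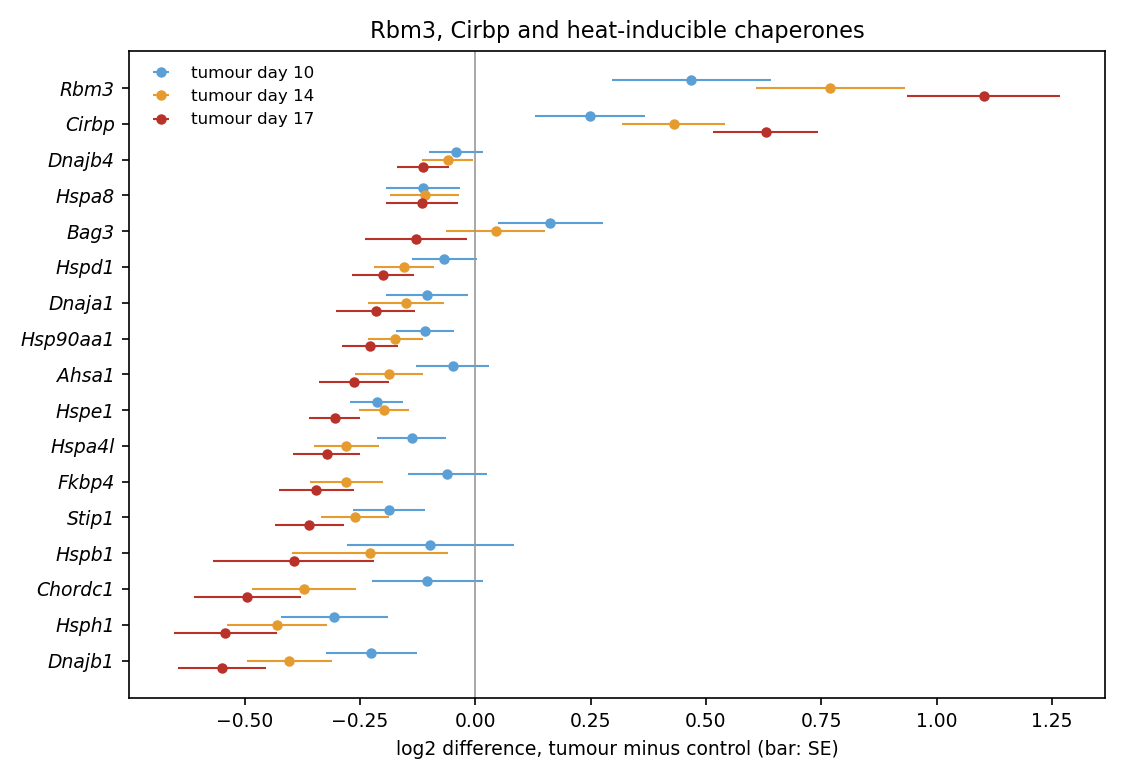
Log2 difference from control on days 10, 14 and 17, with the SE of the limma fit as a bar, for Rbm3, Cirbp and the 15 measured heat-inducible chaperones. Rbm3 and Cirbp lie to the right on all 3 days and grow with day, while the chaperones lie to the left on day 17, down to -0.55 for Dnajb1.

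Among mice of the same group the chaperones were also lower where Cirbp was higher, and less firmly so for Rbm3, in relations that were chosen after seeing the data. The mean log2 level of the 15 chaperones correlated with Cirbp at r = -0.88 and rho = -0.81 (deviations from group means over 22 mice, permutation p = 3e-05 and 2e-05, adjusted 0.00036 and 0.00024 over 12 relations between the 2 genes and 6 gene lists). With Rbm3 it was r = -0.70 and rho = -0.63 (permutation p = 0.00368 and 0.00242, adjusted 0.0221 and 0.0145). Without the 2 mice with the largest chaperone deviations, day 17 replicate 6 and day 14 replicate 6, r was -0.73 for Cirbp (permutation p = 0.00482) and -0.45 for Rbm3 (permutation p = 0.105), so the relation with Rbm3 no longer held and rests on those mice. With 1 array left out in turn, r ran from -0.91 to -0.80 for Cirbp and from -0.77 to -0.55 for Rbm3, and the weakest value of each came without day 17 replicate 6 (permutation p = 0.00022 for Cirbp and 0.0382 for Rbm3). With the run of accessions removed too, r was -0.91 for Cirbp and -0.87 for Rbm3.

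The values of single mice were as follows. The chaperone mean was 9.04 to 9.10 in controls, 8.88 to 9.06 on day 10, 8.77 to 9.0 on day 14 and 8.71 to 8.94 on day 17. All 7 mice of day 14 and all 6 of day 17 lay below every control, as did 4 of 5 of day 10. How often means of other genes separate in this way was not computed. On day 17 the mean of the ependyma markers also lay below every control (5.51 to 5.83 against 5.89 to 6.15). That of the red cell markers lay above every control (6.72 to 8.23 against 4.30 to 5.85). The mouse lowest in Rbm3 and Cirbp on day 17, replicate 6, had the highest chaperone mean of its group, 8.94 against 8.71 to 8.76 in the other 5. On day 14, replicate 6 was lowest in Cirbp (8.11) and had the highest chaperone mean (9.0). The mouse lowest in Rbm3 on day 14, replicate 1 (9.78), did not share this, with a chaperone mean of 8.85, the median of its group. All 15 chaperones correlated negatively with Cirbp within groups (median r -0.51) and 14 of 15 with Rbm3 (median -0.42), and Hspa8, the constitutive Hsp70 gene, was the exception at 0.11. Promoters of the chaperones held the heat shock element core in 5 of 13 genes with a window, against 7.73% of all genes, and the cold response element in 3 of 13 (Dnaja1, Dnajb4 and Bag3), against 5.37% of all genes. They held GC boxes in 11 of 13, against 35.4% of all genes, and CCAAT boxes in 5 of 13, against 37.5%. Nothing about the cold response element in particular is read from this.

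**Figure D4:**
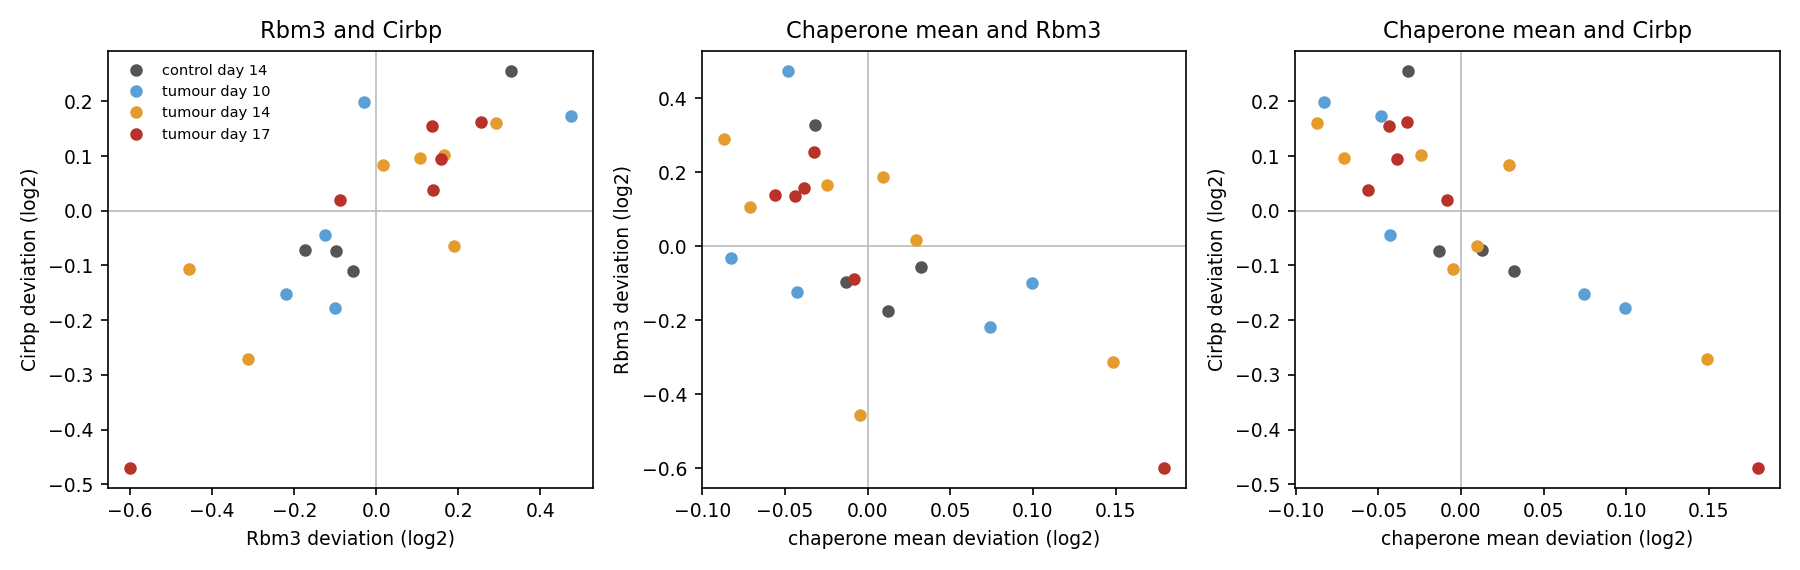
Deviation of each mouse from its group mean, in log2 units, for Rbm3 against Cirbp (left), for the mean of 15 heat-inducible chaperones against Rbm3 (middle) and against Cirbp (right), coloured by group. Rbm3 and Cirbp rise together (r = 0.845), and Cirbp falls as the chaperone mean rises (r = -0.88), with day 17 replicate 6 at the end of each cloud.

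Of 17 known regulators and partners of the 2 proteins, 0 passed in limma on any of the 3 days, with 2, 2 and 2 at an unadjusted p below 0.05 (10.7%, 10.5% and 16.6% of all genes on days 10, 14 and 17), so the counts were near the background. Their median difference was -0.03, -0.03 and -0.05. Creb1, a transcription factor downstream of the BDNF receptor, differed by -0.16 ± 0.05 on day 14 and -0.17 ± 0.05 on day 17 (limma adjusted p = 0.185 and 0.0943). Hnrnph1, a splicing regulator, differed by 0.13 ± 0.06 on day 10, Csnk2a1, a kinase subunit gene, by -0.12 ± 0.05 on days 10 and 17, and Clk2, of the temperature-sensing CLK kinase family, by -0.11 ± 0.05 on day 14. The mean of the list had no called relation with either gene within groups (r = 0.01 for Rbm3 and -0.26 for Cirbp, permutation p = 0.972 and 0.273), though without control replicate 4 the value for Cirbp was -0.59 (permutation p = 0.0152).

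Relatives of Rbm3 and Cirbp were examined by the fold of their proteins. Of 16 genes encoding other proteins with RNA recognition motifs, limma called 0 on each of the 3 days, with 2, 3 and 1 at an unadjusted p below 0.05, against 10.7%, 10.5% and 16.6% of all genes. The members with the smallest p are given as values. The splicing factor gene Srsf2 differed by 0.19 ± 0.06, 0.15 ± 0.05 and 0.16 ± 0.05 on days 10, 14 and 17 (limma adjusted p = 0.238, 0.288 and 0.135). Msi1, a neural progenitor gene, differed by -0.19 ± 0.06 on day 14. Of 7 genes with a cold shock domain, a fold named after bacterial cold shock proteins, limma called 0 on each day and 0, 0 and 0 had an unadjusted p below 0.05. Ybx1, the best studied of them, differed by -0.15 ± 0.07 on day 17 (limma adjusted p = 0.301). Their list mean correlated with Rbm3 at r = -0.45 within groups (permutation p = 0.0413, adjusted 0.165), and with Cirbp at -0.18 (permutation p = 0.420, adjusted 0.840).

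The clock genes were examined because Rbm3 and Cirbp are rhythmic. Of 17 measured, limma called 0 on each of days 10, 14 and 17, with 0, 4 and 8 at an unadjusted p below 0.05, against 10.7%, 10.5% and 16.6% of all genes. Of the 17, 9, 10 and 9 were positive. Per2 differed by 0.19 ± 0.06 on day 14 and Per1 by 0.23 ± 0.07 on day 17, both repressors of the clock (limma adjusted p = 0.230 and 0.109). Bhlhe40, another repressor, differed by 0.11 ± 0.06 and 0.16 ± 0.06 on days 10 and 17. Other clock genes were lower, among them Clock, with a mean of 8.81 in controls and 8.66 on day 17. Arntl had means of 7.25 and 7.09. Within groups Clock correlated with Cirbp at r = -0.50, given as a value without a test. The mean of the list ran from 7.39 to 7.51 in controls and from 7.45 to 7.53 on day 17, and correlated within groups with Rbm3 at r = 0.43 (permutation p = 0.0575, adjusted 0.172) and with Cirbp at 0.13 (permutation p = 0.561, adjusted 0.962). The part of time of day in the differences of Rbm3 and Cirbp was not tested.

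Among genes of body temperature control, 1 of 14 passed. Ptgs2, the inducible cyclooxygenase that makes the prostaglandins of fever, rose on day 10 by 1.15 ± 0.20 (SE, log2, limma adjusted p = 0.028), where 0.101% of all genes were called higher. It lay between 4.63 and 5.05 in controls and between 5.34 and 6.13 on day 10, without overlap. Every mouse of day 10 lay above every control for 2.21% of all genes. The call was lost without control replicate 1, 2 or 3 and without day 10 replicate 1, 2, 4 or 5. On day 17 it differed by 0.69 ± 0.20 (adjusted p = 0.0848). Lepr, the leptin receptor gene, differed by 0.44 ± 0.13 and 0.50 ± 0.14 on days 14 and 17 (adjusted p = 0.193 and 0.0708), and Trpm2, a warmth-sensing channel of preoptic neurons, by -0.23 ± 0.09 on day 14. On day 14 and day 17 limma called 0 of 14, where 4 and 6 had an unadjusted p below 0.05, against 10.5% and 16.6% of all genes. The mean of Ptgs2 was 4.74 in controls and 5.89, 5.25 and 5.44 on days 10, 14 and 17. Rbm3 and Cirbp were also lowest in controls, and day 10 was their lowest tumour-bearing group. Within groups Ptgs2 correlated with Rbm3 at r = 0.04 and with Cirbp at 0.24, given as values without a test.

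Markers of other cell types were set beside Rbm3 and Cirbp. Within groups the mean of the 2 red cell markers correlated with Rbm3 at r = 0.53 and with Cirbp at 0.55, and it ran from 4.30 to 5.85 in controls and from 6.72 to 8.23 on day 17. The mean of 4 neuron markers correlated with Cirbp at -0.60 and with Rbm3 at -0.22, and ran from 10.87 to 11.00 in controls and from 10.78 to 10.92 on day 17. The thalamus mean correlated at -0.07 and -0.08. All 3 ependyma markers were negative on each day, with a median of -0.41 on day 17, when Tmem212 fell by 0.41 ± 0.09 (SE, log2, limma adjusted p = 0.0264), and the list mean ran from 5.89 to 6.15 in controls and from 5.51 to 5.83 on day 17. It correlated with Rbm3 at -0.34 and with Cirbp at -0.31. Of 9 microglia markers 1, Fcrls, fell on days 14 and 17, by 0.43 ± 0.09 and 0.70 ± 0.09 (limma adjusted p = 0.0381 and 0.00104), and the list mean correlated at -0.36 and -0.11. Of all genes, limma called 0.0213% lower on day 14 and 0.685% on day 17. Fcrls and Tmem212 were named after their values were seen. The 5 endothelium markers correlated positively with both genes (list mean 0.27 and 0.42), and 4 of 5 were positive on days 10 and 17, 0 of them called. Of the hypothalamus markers, 8 of 10 were negative on day 10 (median -0.22) and 7 of 10 on days 14 and 17 (medians -0.07 and -0.08), 0 of them called. Markers of astrocytes, oligodendrocytes, meningeal fibroblasts and leukocytes had 0 called on any day. Limma called 0.101%, 0.197% and 0.436% of all genes higher on days 10, 14 and 17, and 0.00531% lower on day 10. The part of these cells in the differences of Rbm3 and Cirbp was not tested.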

How the data were processed

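Hypothalamic RNA of 22 mice (RNA integrity number above 8, per the labels' protocols) was measured on 1 array per mouse. The authors deposited log2 expression values from RMA, per the submitters' processing notes. Its version and build are not given in the sources used here. Platform annotation paired the 35556 probe sets with genes (21218 with 1 gene, 1881 with several, 12457 unnamed here), and 18820 genes were kept without a filter on low values. Names were checked against RefSeq (GRCm38.p6), which changed 0 symbols.

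Group means of all 22 arrays were modelled in limma 3.58.1 (R 4.3.3) with 18 residual degrees of freedom (eBayes without a trend, two-sided, Benjamini-Hochberg over all genes, threshold 0.05). Within-group relations used deviations from group means and 100000 permutations within groups (numpy 2.4.6), or exact permutation of pairings inside a group. Scripts were tested on simulated data. The labels describe separate mice. The number of arrays limits the precision.

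The 2 genes and the gene lists were chosen with earlier results of these data known. Named genes were Rbm3 and Cirbp, up to 4 called members per list and comparison (otherwise up to 2 with the smallest p), the 10 highest and 10 lowest within-group correlates of each gene and the 5 most alike over all mice; predicted genes, receptors for odours and pheromones, and small RNAs were left out of these. Hspa1a, Hspa1b, Hsp90ab1, Nr1d1 and Dbp, among others, had no probe set of their own here and were not analysed here. Alternatives changed the probe set rule, scaling, array weights, filter, variance moderation, samples in the fit, run, replicate block and thalamus covariate, and left out each array. The relations with list means and their alternatives, leaving out 1 or 2 arrays and removing the run, were chosen after seeing the data. Hspa8, Hspa4l, Fkbp4, Tmem212, Fcrls, Clock and Arntl were named after their values were seen.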

Additional observations from a re-analysis of the deposited data

Results flagged for a closer look

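Among 48 groups of values examined (Rbm3, Cirbp, 6 list means and 4 named chaperones in 4 groups), 6 held a mouse whose gap to its nearest neighbour was large for the range of its group. Chance gives such a gap in about 1 of 20 groups. Rbm3 was 10.41 in day 10 replicate 4, against 9.72 to 9.91 in the other 4 mice. Cirbp was 8.21 in control replicate 4, against 7.84 to 7.88 in the other 3 controls, and 8.11 in day 17 replicate 6, against 8.60 to 8.75 in the other 5. The mean of the heat-inducible chaperones was 8.94 in the same day 17 mouse, against 8.71 to 8.76. The mean of the cold shock domain genes was 6.66 in day 14 replicate 1, against 6.51 to 6.56, and this mouse had the lowest Rbm3 value of its group. The mean of the thermoregulation genes was 5.64 in control replicate 3, against 5.76 to 5.78.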

How the results depend on the processing

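The differences of Rbm3 and Cirbp from control kept their sign and moved by less than the SD between mice under all 9 alternatives run and with each of 22 arrays left out. On day 17 they ran from 0.98 to 1.34 for Rbm3 and from 0.54 to 0.77 for Cirbp over the alternatives. The within-group correlation of Rbm3 with Cirbp ran from 0.801 to 0.893 over the alternatives, and from 0.767 to 0.889 with 1 array left out. Leaving out the 2 largest deviations ended the relation of Rbm3 with the chaperone mean (-0.45), not that of Cirbp (-0.73). Counts of list genes past the threshold were less stable. Over all 6 lists the count was 1 on day 10, 0 on day 14 and 7 on day 17 in limma. With 1 array left out it ran from 0 to 1, from 0 to 3 and from 1 to 9. On day 17 it was 11 with array weights and 3 with only the groups compared, which leaves fewer samples. On day 14 it was 2 with trend and robust variance and 1 with genes above background only. The cause was not tested. The correlates were chosen on mice that include days 14 and 17, so their r there is no check of stability. For Rbm3 the median r of the 10 highest was 0.804 in day 14 alone and 0.881 in day 17 alone, and that of the 10 lowest -0.79 and -0.88. For Cirbp these were 0.757 and 0.910, and -0.75 and -0.90.

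Replicate numbers are shared between groups. Deviations of same-numbered mice of different groups had a median correlation of 0.07 (28 pairs, from -0.19 to 0.36). For different-numbered mice it was -0.02 (151 pairs, from -0.29 to 0.47). These ranges overlapped, so the numbers are not taken as pairing, and the difference was not tested. With the replicate block the list count was 7 on day 14 and 10 on day 17, the day 17 differences were 1.19 for Rbm3 and 0.71 for Cirbp, and day 10 kept its count of 1.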
